A study of Oryza sativa with 6 samples.

Results

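Heat stress transcription factors and the heat shock proteins they control were followed in rice roots after a yeast was added to the plants. The genes were found by name. A gene belonged to the group when its symbol or a RefSeq synonym began with Hsf, Hsp or CLPB, with or without the prefix Os, and when a probe set of the array was annotated to that gene alone. This gave 37 genes of the 14662 measured, 19 heat stress factors and 18 heat shock proteins, each read through 1 probe set, its brightest by mean signal. The RefSeq table holds 51 genes with such names. Of these, 3 shared all their probe sets with other genes and 11 are not analysed here, OsHsf-13 (HSFA1) among them.

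The roots came from plants of Oryza sativa, cultivar Swarna MTU7029, aged 3 weeks. The untreated control roots were taken at 0 h, and other roots 6 h and 24 h after cells of the yeast Rhodotorula mucilaginosa JGTA-S1 were given in suspension. Total RNA was measured on Affymetrix arrays, 2 at each time, and the number of arrays limits the precision. Whether arrays of 1 time stem from different plants is not in the labels, so a p-value here reflects only how these samples scatter, and that scatter may be technical. Roots without yeast were measured at 0 h alone, so the yeast and the elapsed time cannot be told apart. In whole roots, fewer cells of a type and less RNA per cell cannot be told apart either.

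Heat stress factors bind short inverted repeats, called heat shock elements, in the promoters of chaperone genes. Plants have many of them in 3 classes. Class A factors carry activation motifs, class B factors lack these and often act as repressors, and class C factors are the least studied. Their targets include the large chaperones HSP100 (ClpB), which pulls proteins out of aggregates, and HSP90, which holds client proteins such as receptors and kinases in a foldable state. Small heat shock proteins bind unfolding proteins before they clump. Outside heat, several of these genes are known from the response to drought, salt and oxidative stress, and HSP90 from plant immunity.

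All values below are log2 signals or log2 differences. A difference carries its standard error from limma, with n = 2 arrays per time, and passed means a limma p below 0.05 after Benjamini-Hochberg adjustment over all 41770 probe sets. The control arrays stood apart from the treated arrays in the spread of signal, with an SD over probe sets of 1.50 and 1.46 at 0 h, 1.82 and 1.62 at 6 h, and 1.79 and 1.75 at 24 h. The control arrays also differed from each other by more than 1 in 6 of the 19 factors and in 4 of the 18 heat shock proteins. At 6 h that held for 1 factor and 0 heat shock proteins, and at 24 h for 0 factors and 1 heat shock protein. Since the spread differs, directions were also read under a pair of other scalings, quantile normalization and cyclic loess, which took the median difference of all genes at 6 h to 0.10 and 0.08, against 0.20 as deposited, and at 24 h to 0.10 and 0.07, against 0.26.

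The label root was set against marker genes. Of the genes listed as markers of rice roots 5 were measured. They ran from the silicon exporter Lsi2, at 8.78 to 9.17 on the 6 arrays, to OsNIP2;2, at 3.93 to 4.92. Whether each of them is particular to roots was not checked. Of these 5, 4 read higher at 6 h than at 0 h (median 0.72, or 0.15 after quantile normalization), 2 read higher at 24 h than at 0 h, and 0 read higher at 24 h than at 6 h. OsPIP2;3, a water channel gene, had the smallest p of them at 6 h (1.27 ± 0.46, adjusted p = 0.186). Their part in the results was not tested. Of markers of green shoots 6 were measured, with a median per array between 2.33 and 3.76. The summed log2 signal of these 6 ran from 17.9 to 22.5 at 0 h, from 18.0 to 21.2 at 6 h and from 18.0 to 20.9 at 24 h.

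Among the heat stress factors, 1 of 19 passed. OsHsf-07 (LOC4329526, HSFA3), whose Arabidopsis counterpart acts downstream of the dehydration factor DREB2A in the heat response, rose at 24 h. No factor passed at 6 h, and none fell. Over all genes 2.2% passed at 6 h (2.09% higher, 0.102% lower) and 3.08% at 24 h (2.97% higher, 0.109% lower), so 0 and 1 of 19 are shares near the background. Without adjustment, limma gave 2 factors a p under 0.05 at 6 h, both higher, and 3 at 24 h, all higher, against 19% and 22.1% of all genes that were higher at those times.

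OsHsf-07 read 2.28 and 3.61 at 0 h, 4.74 and 4.02 at 6 h, and 6.05 and 6.08 at 24 h. The control arrays lay furthest apart, and the 3 times did not overlap. At 24 h it was 8.69-fold higher than at 0 h (log2 difference 3.12 ± 0.47, adjusted p = 0.0299). At 6 h the difference was 1.44 ± 0.47 (adjusted p = 0.154), and between 24 h and 6 h it was 1.68 ± 0.47, with an unadjusted p = 0.00694 and an adjusted p = 1.00. The call at 24 h rests on few arrays. Leaving out either 6 h array gave an adjusted p of 0.0649, and it was 0.349 without the first 24 h array and 0.250 without the second, although the difference lay between 3.10 and 3.14 in all of these. It was 2.46 without the first control array and 3.78 without the second, and both passed. Quantile normalization (2.88, adjusted p = 0.111) and cyclic loess (2.46, adjusted p = 0.106) kept it higher without a call. At 6 h the difference passed only without the second control array (2.10, adjusted p = 0.0473), and it was 0.78 without the first.

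**Figure D1:**
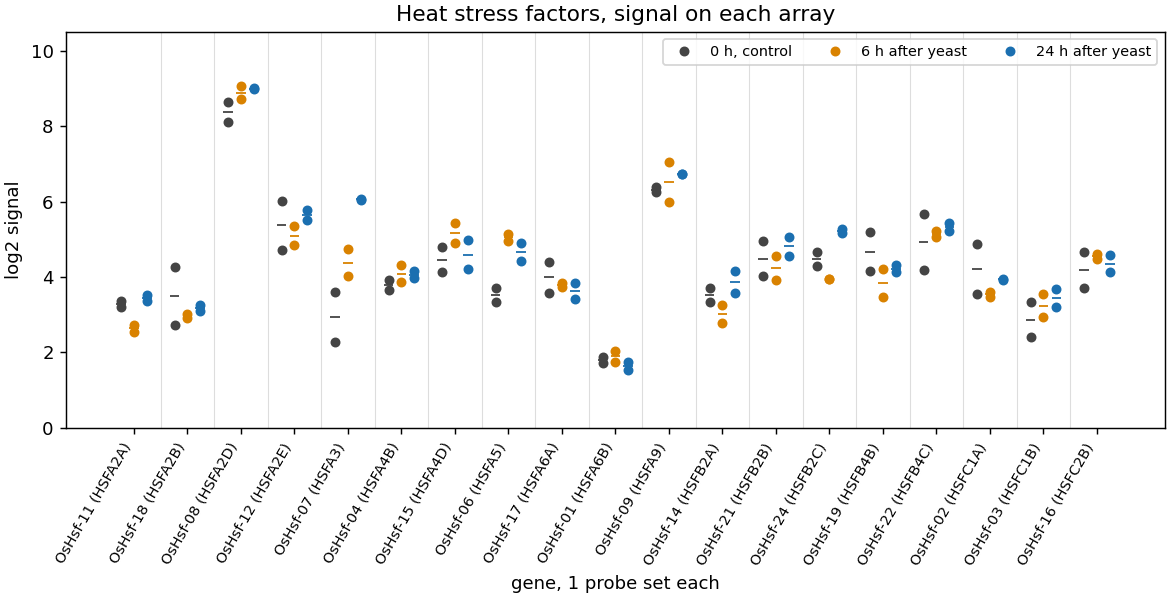
The log2 signal of each of the 19 heat stress factors on the 6 arrays (points, 2 per time; dashes, means), with genes along the horizontal axis ordered by class. OsHsf-07 lies at 6.05 and 6.08 on the 24 h arrays and at 2.28 and 3.61 on the control arrays, while for OsHsf-18 the control points are 1.55 apart.

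OsHsf-06 (LOC4329405, HSFA5), from a type that in Arabidopsis represses HSFA4, came next among class A factors. It read 5.15 and 4.96 at 6 h, against 3.71 and 3.34 at 0 h, a 2.88-fold difference (1.53 ± 0.32) that did not pass (adjusted p = 0.0611). Both 24 h arrays, at 4.43 and 4.91, also lay above both control arrays (1.15 ± 0.32, adjusted p = 0.104). The 6 h difference passed when the dimmest 33.3% of probe sets was left out (adjusted p = 0.0490). It did not pass in a fit to the 4 arrays of these times (adjusted p = 0.168) or with a replicate block (adjusted p = 0.0827). Leaving out 1 array gave differences of 1.34 to 1.71, the lowest without the second control array and the highest without the first. The 6 h difference was 1.27 after quantile normalization (adjusted p = 0.144) and 1.03 after cyclic loess (adjusted p = 0.174). At 24 h the difference was 0.78 and 0.50 under these scalings.

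Neither HSFA4 factor passed. OsHsf-15 (HSFA4D) is the Spotted leaf 7 gene, whose loss gives lesions on rice leaves. It read 4.80 and 4.13 at 0 h, 5.43 and 4.91 at 6 h, and 4.22 and 4.98 at 24 h. The 6 h arrays lay above the control arrays (0.70 ± 0.40, adjusted p = 0.373) and the 24 h arrays overlapped them (0.13 ± 0.40), a difference that turned to -0.43 after quantile normalization. OsHsf-04 (HSFA4B) differed by 0.30 ± 0.32 at 6 h and by 0.26 ± 0.32 at 24 h.

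The HSFA2 type includes factors that sustain the heat response once it has begun, and none of its 4 members passed. OsHsf-11 (HSFA2A) read 3.19 and 3.37 at 0 h, 2.55 and 2.72 at 6 h, and 3.53 and 3.37 at 24 h. Its 6 h arrays lay below those of both other times (-0.64 ± 0.29 against 0 h, adjusted p = 0.274, and 0.81 ± 0.29 for 24 h minus 6 h, unadjusted p = 0.0229). OsHsf-18 (HSFA2B) read 2.72 and 4.27 at 0 h, so far apart that the 3.02 and 2.92 at 6 h and the 3.11 and 3.26 at 24 h fell between the control arrays. OsHsf-12 (HSFA2E), which confers heat tolerance when overproduced in Arabidopsis, differed by -0.28 ± 0.45 at 6 h and 0.28 ± 0.45 at 24 h.

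OsHsf-08 (HSFA2D), known in rice from tiller angle and gravitropism, read 8.66 and 8.11 at 0 h, 9.06 and 8.73 at 6 h, and 8.98 and 9.03 at 24 h. Both treated times lay above the controls without overlap, by 0.51 ± 0.32 (adjusted p = 0.425) and 0.62 ± 0.32 (adjusted p = 0.304). Its gene record also carries the names of an acireductone dioxygenase (ARD2), an enzyme of methionine salvage, so which of the transcripts the probe set reads is not settled here.

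The other class A factors showed no separation between 0 h and 6 h. OsHsf-17 (HSFA6A) read 4.41 and 3.59 at 0 h, 3.72 and 3.85 at 6 h, and 3.42 and 3.83 at 24 h, with overlap throughout. OsHsf-01 (HSFA6B) was dim, at 1.87 and 1.71 at 0 h, 1.75 and 2.04 at 6 h, and 1.54 and 1.75 at 24 h. The files hold no background level to set such a signal against. OsHsf-09 (HSFA9), of a type active in Arabidopsis seeds, differed by 0.21 ± 0.39 at 6 h and 0.42 ± 0.39 at 24 h, where both arrays lay above the controls, and by -0.26 and -0.09 after quantile normalization.

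None of the class B factors passed. Their median difference was -0.50 at 6 h and 0.33 at 24 h, and after quantile normalization it was -0.68 at 6 h and turned to -0.18 at 24 h. OsHsf-24 (LOC4347637, HSFB2C) read 4.29 and 4.67 at 0 h, 3.95 and 3.96 at 6 h, and 5.18 and 5.28 at 24 h. The 3 times did not overlap, with 6 h lowest and 24 h highest. The difference was -0.52 ± 0.30 at 6 h (adjusted p = 0.378), 0.75 ± 0.30 at 24 h (adjusted p = 0.200) and 1.27 ± 0.30 for 24 h minus 6 h (unadjusted p = 0.00264, adjusted p = 1.00). After quantile normalization the value at 24 h shrank to 0.11 and that between the treated times was 1.02.

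OsHsf-14 (HSFB2A) had the same order at 6 h. It read 3.33 and 3.72 at 0 h, 3.26 and 2.79 at 6 h, and 4.15 and 3.58 at 24 h. Both 6 h arrays lay below those of the other times (-0.50 ± 0.35 against 0 h, and 0.84 ± 0.35 for 24 h minus 6 h, unadjusted p = 0.0425). OsHsf-19 (HSFB4B), from the type whose Arabidopsis member SCHIZORIZA sets cell fates in the root, read 4.15 and 5.21 at 0 h, 4.22 and 3.46 at 6 h, and 4.32 and 4.14 at 24 h, with overlap. OsHsf-22 (HSFB4C) differed by 0.23 ± 0.47 and 0.42 ± 0.47. OsHsf-21 (HSFB2B), a negative regulator of drought and salt tolerance in rice, differed by -0.24 ± 0.42 and 0.32 ± 0.42 at 6 h and 24 h. Of the 5 class B factors 1 read higher than at 0 h at 6 h and 4 at 24 h. All 5 read higher at 24 h than at 6 h.

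The 3 class C factors overlapped with 0 h at both treated times. Of all 14662 genes 7491 did so at 6 h and 6034 at 24 h, so overlap is common and does not mark this class. OsHsf-02 (HSFC1A) read 3.56 and 4.87 at 0 h, 3.48 and 3.60 at 6 h, and 3.92 and 3.96 at 24 h. OsHsf-16 (HSFC2B) read 3.71 and 4.68 at 0 h, 4.49 and 4.61 at 6 h, and 4.13 and 4.58 at 24 h. OsHsf-03 (HSFC1B), needed in rice for tolerance of salt and osmotic stress, differed by 0.37 ± 0.41 at 6 h and 0.57 ± 0.41 at 24 h.

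As a class, the 19 factors had a median difference of 0.11 at 6 h, against 0.20 over all genes, and of 0.28 at 24 h, against 0.26. After quantile normalization the medians turned to -0.26, against 0.10, and to -0.14, against 0.10. Both treated arrays lay above both control arrays in 4 factors at 6 h, which is 21.1% against 34.3% of all genes, and in 6 at 24 h, which is 31.6% against 42.6%. They lay below in 3 at 6 h, which is 15.8% against 14.6% of all genes, and in 0 at 24 h, against 16.3%.

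None of the 18 heat shock proteins passed at 6 h or at 24 h. Over all genes 2.2% and 3.08% passed at these times, so 0 of 18 is near the background. The HSP90 gene HSP81-1 was nearest the threshold among those that read lower, and the plastid HSP100 gene CLPB-C among those that read higher. Without adjustment, limma gave a p under 0.05 to 1 that was higher and 4 that were lower at 6 h, and to 3 that were higher and 1 that was lower at 24 h. Over all genes the shares were 19% higher and 4.27% lower at 6 h, and 22.1% higher and 3.94% lower at 24 h.

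Of the HSP100 genes, CLPB-C (LOC4333161) encodes the plastid form. It read 3.79 and 3.56 at 0 h, 5.40 and 4.69 at 6 h, and 5.38 and 4.97 at 24 h. The treated arrays of both times lay above the controls and overlapped each other. The difference was 2.59-fold at 6 h (1.37 ± 0.35, adjusted p = 0.0942) and 2.83-fold at 24 h (1.50 ± 0.35, adjusted p = 0.0696). Both kept their sign after quantile normalization, at 1.07 and 1.06. CLPB-M, the mitochondrial form, differed by -0.41 ± 0.40 at 6 h and 0.18 ± 0.40 at 24 h. CLPB1, the cytosolic HSP101 on which heat tolerance depends, was dim throughout and differed by -0.28 ± 0.30 and -0.16 ± 0.30.

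HSP81-1 (LOC4345951), also named HSP82, is a cytosolic HSP90. It read 7.91 and 7.28 at 0 h, 6.05 and 6.13 at 6 h, and 6.87 and 7.43 at 24 h. Both 6 h arrays lay below all 4 others, and the 24 h arrays overlapped the controls. The level at 6 h was 0.352 of that at 0 h (-1.51 ± 0.35, adjusted p = 0.0765), and at 24 h the difference was -0.44 ± 0.35. With an intensity trend and robust estimation in limma the 6 h difference passed (adjusted p = 0.0361). It did not pass after quantile normalization (-1.87, adjusted p = 0.0985) or cyclic loess (-1.98, adjusted p = 0.0745). Nor did it pass with the replicate block (adjusted p = 0.097) or in the fit to 4 arrays (adjusted p = 0.182). Between 24 h and 6 h it was 1.06 ± 0.35, with an unadjusted p = 0.0162 and an adjusted p = 1.00.

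The other HSP90 genes of this type, HSP81-2 and HSP81-3, shared their 3 probe sets with neighbours or with each other and are not counted among the 37. These probe sets differed by 0.01 ± 0.29, 0.27 ± 0.29 and -0.12 ± 0.29 at 6 h, and by -0.04 ± 0.29, 0.15 ± 0.29 and -0.20 ± 0.29 at 24 h. These values lie nearer 0 than that of HSP81-1 at 6 h, and the difference between the probe sets was not tested. The remaining gene without a probe set of its own, the small heat shock protein gene HSP19.0, read 2.86 and 5.27 on the control arrays, with all treated arrays between them. The shoot marker CAB1R, a light-harvesting protein gene, read 5.61 and 5.88 at 0 h, 4.77 and 4.59 at 6 h, and 5.93 and 5.41 at 24 h, so it too was lowest at 6 h (-1.06 ± 0.32, adjusted p = 0.131). Of the 6 shoot markers 2 read higher and 4 lower than at 0 h at 6 h. The 2 that read higher were RCABP89 (1.07 ± 0.52, adjusted p = 0.304) and OsrbcS (0.43 ± 0.43). The part of the shoot markers in the result was not tested.

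**Figure D2:**
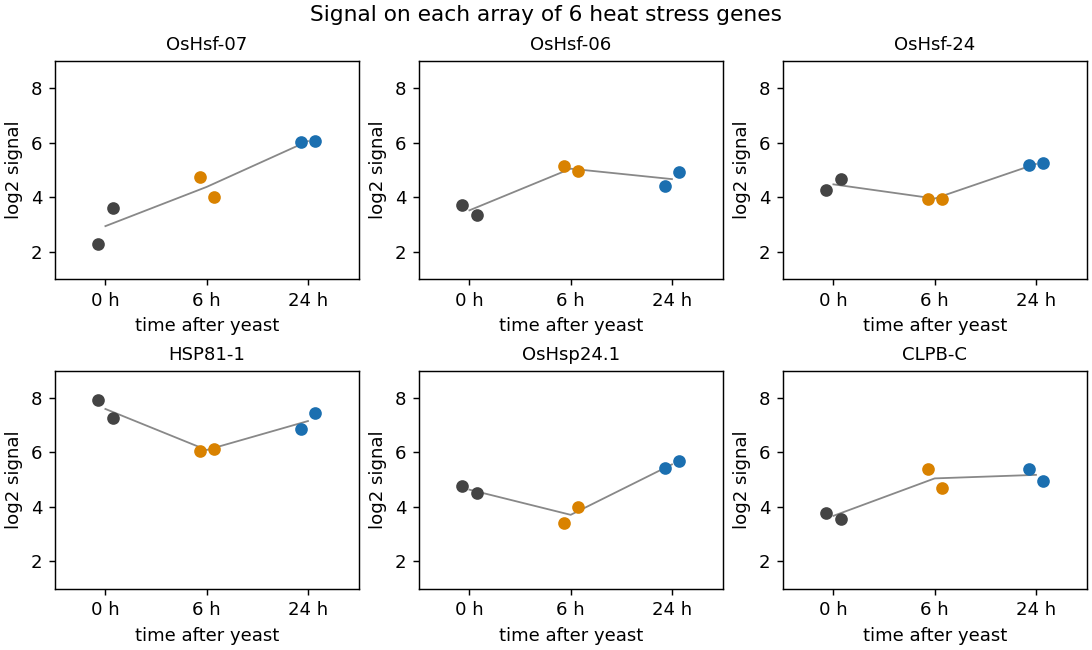
The log2 signal of 6 heat stress genes at 0 h, 6 h and 24 h (points, single arrays; grey lines join the means of the 2 arrays). HSP81-1 reads 6.05 and 6.13 on the 6 h arrays and at least 6.87 on the other 4, OsHsf-24 and OsHsp24.1 are lowest at 6 h and highest at 24 h, and CLPB-C and OsHsf-06 are higher at both treated times than at 0 h.

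Small heat shock proteins made up 14 of the 18. OsHsp24.1 (LOC4330786), assigned to mitochondria, read 4.76 and 4.51 at 0 h, 3.42 and 4.0 at 6 h, and 5.44 and 5.68 at 24 h. The times did not overlap, with 6 h lowest and 24 h highest. The difference was -0.92 ± 0.33 at 6 h (adjusted p = 0.183), 0.93 ± 0.33 at 24 h (adjusted p = 0.162) and 1.85 ± 0.33 for 24 h minus 6 h, a 3.60-fold difference with an unadjusted p = 0.000456 and an adjusted p = 1.00. After quantile normalization the value at 24 h was 0.29 and that between the treated times 1.55.

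OsHsp23.2, a form of the endoplasmic reticulum, was the other small heat shock protein with both 24 h arrays above the controls. It read 3.84 and 2.97 at 0 h, 3.57 and 3.95 at 6 h, and 4.61 and 4.20 at 24 h. The difference was 0.35 ± 0.38 at 6 h and 1.00 ± 0.38 at 24 h (adjusted p = 0.186). The genes of protein folding in that compartment were read from a separate list, given further on.

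Of the 14 small heat shock proteins 12 read lower than at 0 h at 6 h and 10 at 24 h. Over all 14662 genes 5666 and 5235 did so. The counts were the same after quantile normalization, but the genes were not. OsHsp18.1 turned higher at both times, while OsHsp17.9B turned lower at 6 h and OsHsp17.9A at 24 h. In the gene order of the assembly ASM3414082v1, OsHsp16.6, OsHsp17.9B, OsHsp16.9A and OsHsp16.9B form one cluster with at most 1 other gene between neighbours. Members of such clusters are often close copies. No sequences were compared here, so whether their probe sets read each other's transcripts is not settled. The gene record of OsHsp16.9A also carries the name OsHsp16.9B, so these readings may not be separate. OsHsp16.9B read 3.77 and 3.85 at 0 h, 3.04 and 2.99 at 6 h, and 3.07 and 3.18 at 24 h, with all treated arrays below the controls (-0.80 ± 0.28, adjusted p = 0.183, and -0.69 ± 0.28, adjusted p = 0.212). OsHsp16.9A read 2.52 and 2.56 at 0 h, 1.61 and 2.48 at 6 h, and 1.63 and 1.83 at 24 h, again with both times below the controls (-0.50 ± 0.36 and -0.81 ± 0.36, adjusted p = 0.487 and 0.240).

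The other genes of that cluster did not pass either. OsHsp17.9B read 5.14 and 5.23 at 0 h, 5.35 and 5.14 at 6 h, and 4.92 and 4.94 at 24 h, where both arrays lay below all others (-0.25 ± 0.29 against 0 h, adjusted p = 0.635, and -0.92 after quantile normalization). OsHsp16.6 read 3.18 and 3.28 at 0 h, 3.63 and 2.70 at 6 h, and 2.40 and 3.49 at 24 h, so the treated arrays of each time fell on both sides of the controls. It is the heat shock protein with the largest gap between arrays at 6 h and at 24 h.

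The second cluster holds OsHsp17.9A, OsHsp17.4 and OsHsp18.1, with 4 and 0 other genes between neighbours. OsHsp17.9A differed by -0.28 ± 0.34 at 6 h and 0.10 ± 0.34 at 24 h, OsHsp17.4 by -0.49 ± 0.50 and -0.23 ± 0.50, and the dim OsHsp18.1 by -0.21 ± 0.33 and -0.01 ± 0.33. OsHsp17.4 was the only member with further probe sets. These 2 held identical values on every array, and differed by -0.66 ± 0.30 at 6 h (adjusted p = 0.276) and -0.29 ± 0.30 at 24 h, in the same direction as the probe set used. In them both arrays of either treated time lay below both control arrays, while the probe set used overlapped at both times. The class counts of arrays below the controls, given further on, rest on the probe set used.

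Of the small heat shock proteins elsewhere in the genome, OsHsp17.8 read 4.0 and 4.15 at 0 h, 3.54 and 3.05 at 6 h, and 3.59 and 3.67 at 24 h. All treated arrays lay below the controls (-0.78 ± 0.31, adjusted p = 0.225, and -0.45 ± 0.31, adjusted p = 0.429). OsHsp18.9 read 4.02 and 3.52 at 0 h, 3.72 and 3.40 at 6 h, and 4.44 and 4.01 at 24 h, with overlap between 0 h and either time. OsHsp22.3 read 3.90 and 2.70 at 0 h, 3.46 and 3.06 at 6 h, and 3.13 and 3.12 at 24 h, all treated arrays between the controls. OsHsp26.2 differed by -0.73 ± 0.44 at 6 h and -0.15 ± 0.44 at 24 h, and OsHsp16.0 by -0.20 ± 0.45 and -0.15 ± 0.45.

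**Figure D3:**
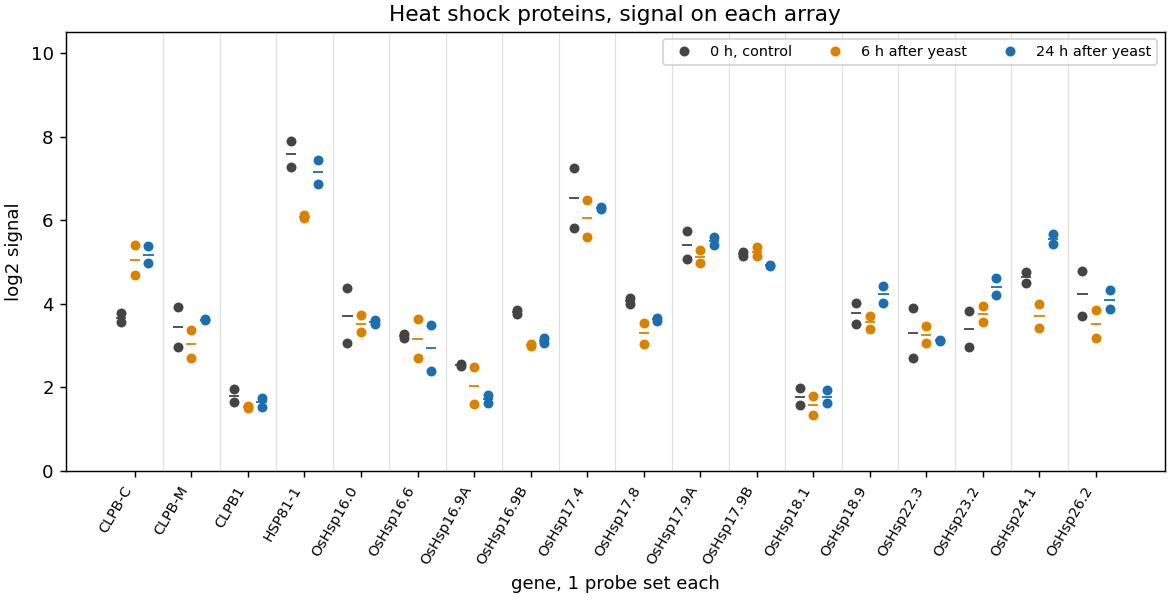
The log2 signal of each of the 18 heat shock protein genes on the 6 arrays (points, 2 per time; dashes, means), with the HSP100 and HSP90 genes at the left and small heat shock proteins at the right. OsHsp16.9B and OsHsp17.8 lie below their control arrays at both treated times, CLPB-C lies above at both, and OsHsp24.1 lies below at 6 h and above at 24 h.

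The 18 heat shock proteins found by name were 3 of HSP100, 1 of HSP90 and 14 small ones. No HSP70 gene was among them, so the class values mostly describe small heat shock proteins. As a class, the 18 had a median difference of -0.28 at 6 h, against 0.20 over all genes, and of -0.16 at 24 h, against 0.26. Relative to all genes these were -0.48 and -0.42 as deposited, -0.51 and -0.49 with quantile normalization, and -0.60 and -0.50 with cyclic loess. The median at 24 h depended on the control arrays, at -0.27 without the first and 0.10 without the second, and that at 6 h was -0.48 and -0.15. Only 3 of the 18 had a higher mean than the controls at 6 h and 6 at 24 h, whereas 61.4% and 64.3% of all genes did. Both 6 h arrays lay below both control arrays in 6 and above them in 1, which is 33.3% and 5.56% of the class, against 14.6% and 34.3% of all genes. Both 24 h arrays lay below in 4 and above in 3, which is 22.2% and 16.7%, against 16.3% and 42.6% of all genes. These shares describe the members and are no test.

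**Figure D4:**
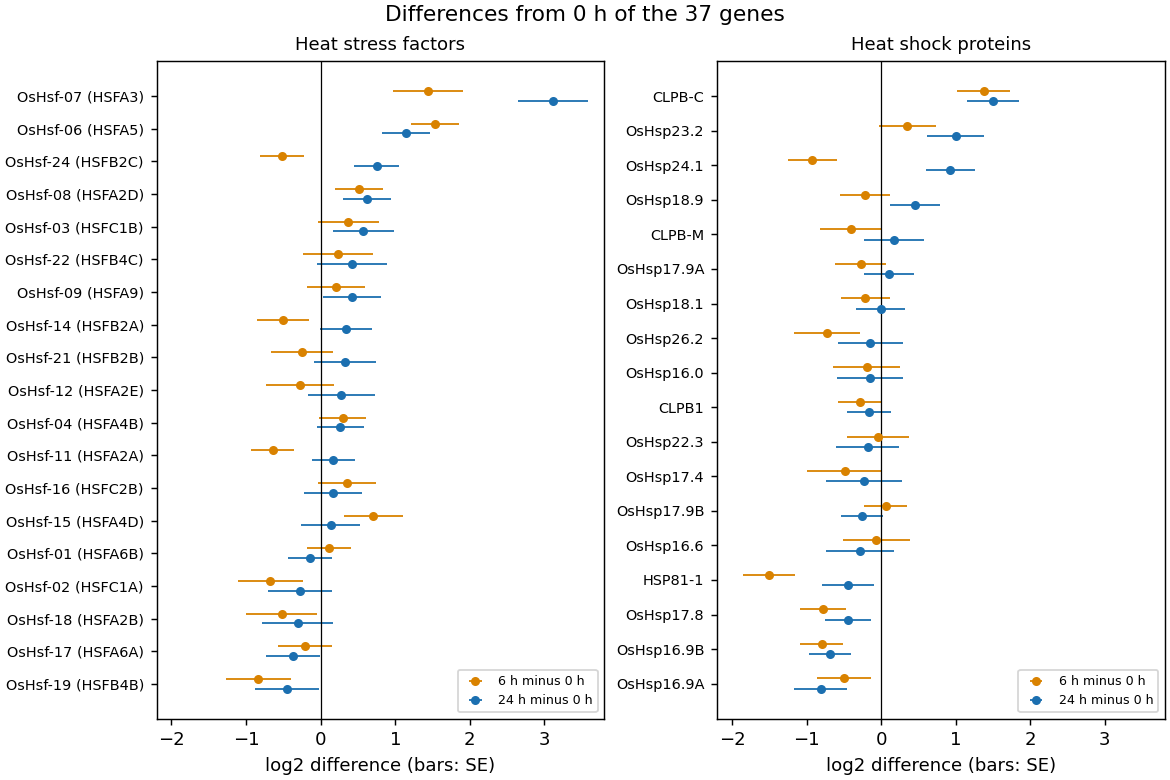
The log2 difference of each of the 37 genes from 0 h, at 6 h (orange) and at 24 h (blue), with bars of 1 SE from the fit; both differences of a gene share the control arrays. OsHsf-07 at 24 h (3.12) is the value furthest above 0 and HSP81-1 at 6 h (-1.51) the value furthest below.

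Between the treated times the difference uses no control array, but its standard error pools the spread of all 6 arrays. No probe set passed, and 1097 of 41770 had an unadjusted limma p under 0.05. In the fit to the 4 treated arrays alone 1823 did, and again none passed. Of the heat stress factors 13 of 19 read higher at 24 h than at 6 h, with a median of 0.21, and of the heat shock proteins 14 of 18, with a median of 0.23. The median over all genes was 0.05, and 55.6% of them read higher. Both 24 h arrays lay above both 6 h arrays in 17 of the 37 genes (45.9%), against 19.3% of all genes, and below them in 2, OsHsf-06 and OsHsp17.9B (5.41%), against 14.6%. These were 8 factors and 9 heat shock proteins above. Unadjusted p under 0.05 was found for 6 of the 37, all higher at 24 h, against 2.13% of all genes that were higher and 1.1% that were lower. They were OsHsp24.1, OsHsf-24, OsHsf-07, HSP81-1, OsHsf-11 and OsHsf-14. The medians of both classes stayed above 0 after quantile normalization, at 0.15 for the factors and 0.21 for the heat shock proteins, and after cyclic loess, at 0.13 and 0.23. The median of the heat shock proteins was 0.45 without the first 6 h array and 0.11 without the second.

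**Figure D5:**
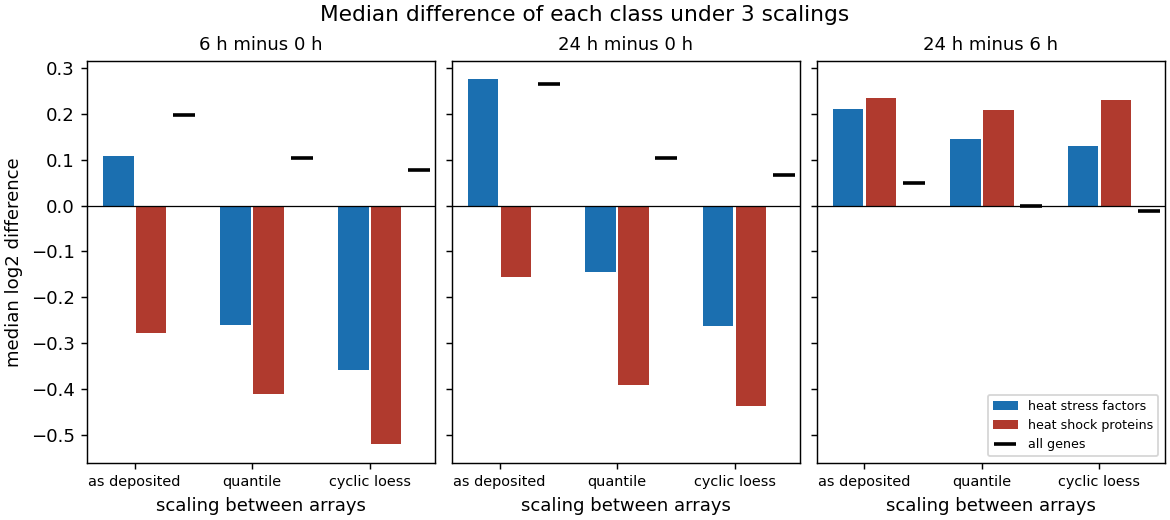
The median log2 difference of the 19 heat stress factors (blue) and the 18 heat shock proteins (red) in the 3 comparisons, under 3 scalings between arrays; black dashes are medians over all genes. Against 0 h the factors lie above 0 as deposited and below 0 after both other scalings, while for 24 h minus 6 h both classes lie above 0 under all 3.

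Partners of these chaperones were read from separate lists. J-domain proteins hand unfolded clients to HSP70. Of 5 co-chaperones 1 rose at 6 h and at 24 h and 0 fell, while 2.09% of all genes rose at 6 h and 2.97% at 24 h. It was OsDjA6, a J-domain protein, which read 6.65 and 6.06 at 0 h, 8.77 and 8.32 at 6 h, and 8.74 and 8.26 at 24 h. All 4 treated arrays lay above the controls, by 2.19 ± 0.36 (4.55-fold, adjusted p = 0.0340) and 2.14 ± 0.36 (4.41-fold, adjusted p = 0.0357). Neither call held after quantile normalization (1.76 and 1.72, adjusted p = 0.0877 and 0.111) or cyclic loess (1.80 and 1.75, adjusted p = 0.0745 and 0.105). Both were also lost in the fit to 4 arrays (adjusted p = 0.107 and 0.0649). At 6 h the call was also lost without the second control array (adjusted p = 0.0520), either 24 h array (0.107), or the first (0.209) or second 6 h array (0.122). At 24 h it was lost without the second control array (0.0509), either 6 h array (0.0649), or the first (0.404) or second 24 h array (0.250). OsDjB6 differed by 0.72 ± 0.34 and 0.74 ± 0.34 and did not pass. These values shrank to 0.17 and 0.11 after quantile normalization. OsRAR1, which works with HSP90 in immune receptors, differed by 0.42 ± 0.33 and 0.21 ± 0.33, values that turned to -0.077 and -0.41 after quantile normalization.

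Of 17 genes of folding in the endoplasmic reticulum 0 passed at either time, and limma gave an unadjusted p under 0.05 to 2 at 6 h and 3 at 24 h, all higher. That is 11.8% and 17.6% of the list, against 19% and 22.1% of all genes. The protein disulfide isomerase OsPDIL1-4 read 5.33 and 4.43 at 0 h, 6.47 and 6.23 at 6 h, and 6.61 and 6.54 at 24 h (1.47 ± 0.36 and 1.70 ± 0.36, adjusted p = 0.0880 and 0.0566). It passed at 6 h and 24 h without the first control array (1.92 and 2.15, adjusted p = 0.0297 and 0.0248), and at 24 h with an intensity trend (0.0393) or without the dimmest 33.3% of probe sets (0.0459). It did not pass without the second control array (1.02 and 1.24, adjusted p = 0.138 and 0.0823) or after quantile normalization (0.93 and 1.13, adjusted p = 0.258 and 0.216). OsPDIL5-1, of the same family, differed by 1.35 ± 0.39 and 1.18 ± 0.39, and passed at both times without the first control array (1.87 and 1.70, adjusted p = 0.0317 and 0.0349). It was 0.83 and 0.66 without the second (adjusted p = 0.212 and 0.293), and 0.81 and 0.59 after quantile normalization (0.376 and 0.533). The HSP70 of this compartment, OsBiP1, differed by -0.56 ± 0.30 and -0.11 ± 0.30. The list median was 0.34 at 6 h and 0.34 at 24 h, against 0.20 and 0.26 over all genes, and turned to -0.099 and -0.12 after quantile normalization, against 0.10 and 0.10, and to -0.12 and -0.060 after cyclic loess.

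Of 3 other Clp proteins and 3 regulators of heat and drought responses 0 passed, and 0 had an unadjusted p under 0.05. Over all genes 2.2% passed at 6 h and 3.08% at 24 h, so 0 among so few genes is near the background. By unadjusted limma p under 0.05, 19% of all genes were higher and 4.27% lower at 6 h. At 24 h these shares were 22.1% and 3.94%. CLPC1, a plastid chaperone of protein import, differed by 0.55 ± 0.32 at 6 h and 0.38 ± 0.32 at 24 h, the second of which was -0.011 after quantile normalization. The dehydration factors OsDREB2C and OsDREB2D differed by 0.39 ± 0.29 and 0.38 ± 0.37 at 6 h and by 0.56 ± 0.29 and 0.060 ± 0.37 at 24 h. With quantile normalization OsDREB2C turned to -0.039 at 6 h and -0.034 at 24 h, and OsDREB2D to -0.081 at 24 h.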

How the data were processed

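The authors deposited 1 table of summarised log2 signals per probe set; Affymetrix Expression Console is the tool named, per the submitters' processing notes. Its version, settings, normalization and filters are not given in these sources. Base 2 of the logarithm is inferred from the range of values, 0.65 to 13.36. Gene names of probe sets came from the platform annotation (15299 with 1 gene, 436 with several, 26035 with none) and symbols from the RefSeq table of ASM3414082v1, in which 14661 of 14662 genes were found by number. No coordinates are printed, since the arrays' own build is unstated.

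All 6 arrays entered 1 limma 3.58.1 model in R 4.3.3 with a mean for each time (3 residual and 5.08 prior degrees of freedom), and each pair of times was compared. It was tested on simulated data. Tables and plots used Python 3.11.15. Per-array values are printed for the 4 marker genes of the group (OsHsf-07, HSP81-1, OsHsp24.1 and CLPB-C), for genes that passed, and per class and comparison for the 4 higher and 4 lower genes with the smallest unadjusted p, 24 genes in all. Lists of partners and of tissue markers were matched by name, and 8 genes whose names only begin like those of a list were left out. The members and lists were chosen with earlier results of these data known. Alternatives were 2 other scalings, a filter on dim probe sets, another variance model, a fit to 4 arrays, the replicate block, every probe set of a gene, and leaving out each array.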

Additional observations from a re-analysis of the deposited data

Results flagged for a closer look

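In OsHsp24.1 and in OsHsf-24 both 6 h arrays lay below both control arrays while both 24 h arrays lay above them. These genes were flagged because their effects differed between the times. Over all genes, both 6 h arrays lay below the controls in 14.6% and both 24 h arrays lay above them in 42.6%. The share of all genes with both was not counted. For OsHsp24.1 the effect at 24 h exceeded that at 6 h by 1.85 ± 0.33 on the log2 scale, and for OsHsf-24 by 1.27 ± 0.30. The difference between the times was tested as 24 h minus 6 h in limma and did not pass in either gene after adjustment over all probe sets (adjusted p = 1.00 in both, unadjusted p = 0.000456 and 0.00264). The sign of each effect was the same after quantile normalization and after cyclic loess, but the effects at 24 h shrank. They were 0.29 and 0.24 for OsHsp24.1, and 0.11 and 0.078 for OsHsf-24, so a rise above the controls depends on the scaling.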

How the results depend on the processing

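With 2 arrays per time, counts of calls moved with the processing. At 6 h 641 probe sets passed, against 81 after quantile normalization, 119 after cyclic loess, 1062 with an intensity trend and robust estimation, 81 in the fit to 4 arrays and 384 with the replicate block, and 0 to 2249 when 1 array was left out. At 24 h 925 passed, against 24, 52 and 0 after quantile normalization, after loess and with 4 arrays, 570 with the replicate block, and 0 to 2793 without 1 array. No probe set passed for 24 h minus 6 h in any of these limma settings. The share of calls that were higher was 90.6% at 6 h and 89.3% at 24 h, and 66.1% and 67% without the first control array or 67.5% and 66.3% without the second. The deviations of the first arrays from the mean of their time correlated between times with 0.05, 0.03 and 0.16 over all probe sets. With 2 arrays per time the second arrays mirror the first and add no further pairing. These values cannot show whether same-numbered arrays share plants or a run, which the labels do not give. The replicate block changed no call among the 37 genes.

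Heat stress factors that passed numbered 1 at 6 h without the dimmest 33.3% of probe sets and 0 to 1 without 1 array. At 24 h they numbered 0 after loess, quantile normalization or with 4 arrays, and 0 to 1 without 1 array. With the intensity trend 1 heat shock protein passed at 6 h. The factors' median was -0.36 after loess and -0.26 after quantile normalization at 6 h, and -0.26 and -0.14 at 24 h. That of the heat shock proteins was -0.52 and -0.41 at 6 h (-0.48 to -0.15 without 1 array) and -0.44 and -0.39 at 24 h (-0.27 to 0.10), and 0.11 to 0.45 for 24 h minus 6 h without 1 array.

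Under quantile normalization, loess or both, the sign of the difference turned in 4 factors and 3 heat shock proteins at 6 h, in 8 and 5 at 24 h, and in 0 and 3 between the treated times. Among members without printed array values these were OsHsf-04 (loess), OsHsf-09, OsHsf-22, CLPB1 (loess) and OsHsp18.1 at 6 h, OsHsf-04, OsHsf-09, OsHsf-12, OsHsf-21, OsHsf-22, CLPB-M, CLPB1, OsHsp17.9A and OsHsp18.1 at 24 h, and OsHsp16.0 between the treated times. Among members with printed array values and OsDjB6, after both loess and quantile normalization it turned for OsHsp17.9B (-0.53 and -0.49) and OsHsf-16 (-0.13 and -0.037) at 6 h, for OsHsf-01 (0.29 and 0.17), OsHsf-15 (-0.56 and -0.43) and OsHsf-16 (-0.48 and -0.36) at 24 h, and for CLPB-C (-0.013 and -0.0081) and OsDjB6 (-0.059 and -0.060) between the treated times. Among these, after loess alone it turned for OsHsp18.9 at 24 h (-0.021) and OsHsp16.9B between the treated times (-0.036). In the same genes and OsDjA6 and OsBiP1, leaving out 1 array turned these signs at 6 h: OsHsp16.6 (-0.53 to 0.40), OsHsp17.9B (-0.048 to 0.17), OsHsp18.9 (-0.47 to 0.034), OsHsp22.3 (-0.64 to 0.56), OsHsp23.2 (-0.083 to 0.79), OsHsf-01 (-0.037 to 0.25), OsHsf-16 (-0.12 to 0.84), OsHsf-17 (-0.62 to 0.20) and OsHsf-18 (-1.30 to 0.25). At 24 h it did so for OsHsp16.6 (-0.83 to 0.26), OsHsp22.3 (-0.78 to 0.42), OsHsf-02 (-0.93 to 0.38), OsHsf-15 (-0.24 to 0.51), OsHsf-16 (-0.32 to 0.64), OsHsf-17 (-0.78 to 0.040), OsHsf-18 (-1.08 to 0.46), OsHsf-19 (-0.98 to 0.076) and OsBiP1 (-0.23 to 0.015). Between the treated times it did so for CLPB-C (-0.22 to 0.48), OsHsp16.6 (-0.76 to 0.32), OsHsp16.9A (-0.75 to 0.12), OsHsp22.3 (-0.34 to 0.065), OsHsf-08 (-0.056 to 0.28), OsHsf-16 (-0.42 to 0.031), OsHsf-17 (-0.36 to 0.047), OsDjA6 (-0.28 to 0.19) and OsDjB6 (-0.28 to 0.30). The cause was not tested. Without background levels the dim signals of CLPB1, OsHsp18.1 and OsHsf-01 are the least certain.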
